A study of Homo sapiens with 4 samples.

Results

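The genes of the proteasome, the protease that degrades ubiquitin-tagged proteins, were examined in SAS, an established human tongue squamous carcinoma line. The set was chosen by name: PSMA, PSMB, PSMC, PSMD, PSME, PSMF and PSMG genes ending in digits only, with POMP and ADRM1. It held 48 of the 35767 genes in the table, and all 48 passed the filter on low counts. RNA sequencing counts were available for 2 libraries labelled as treated with an siRNA against NAT10 (siNAT10) and 2 libraries labelled siControl, for a control siRNA. NAT10 is an RNA acetyltransferase. The genotype label of siNAT10 replicate 2 names NAT11 in place of NAT10, the control cells carry the label WT, and no other agent, time or dose is named. The labels call the libraries biological replicates without naming separate cultures. The p-value of a gene reflects how far these libraries spread, in that gene and in part pooled over the other genes. Part of that spread may be technical.

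NAT10 itself was at 253 and 248 CPM in the libraries labelled siNAT10 and at 240.4 and 231 CPM in the siControl libraries, where CPM is the count scaled for depth, on library sizes adjusted by TMM (trimmed mean of M-values). The difference was 0.09 ± 0.06 on the log2 scale (SE, edgeR adjusted p = 0.293), so the mRNA counts do not show the knockdown, and each direction below is that of the libraries labelled siNAT10. NAA40, for which RefSeq lists NAT11 as a synonym, had 18.6 and 18.2 CPM in the libraries labelled siNAT10 and 22.1 and 18.8 CPM in siControl and was not called (log2 difference -0.15 ± 0.10, edgeR adjusted p = 0.255). It was called lower with libraries scaled by their totals alone (adjusted p = 0.049). Total counts ranged from 30794757 to 36341785 per library. KRT8, KRT18, KRT17 and SFN, markers of epithelium, ranged from 228 to 2027 CPM. The other 5 of the 9 epithelial markers analysed were low: KRT14, EPCAM and CDH1 ranged from 0.779 to 8.35 CPM, and KRT5 and TP63, markers of squamous basal cells, stayed under 1 CPM in every library. KRT8 and SFN were called higher (log2 fold change 0.27 and 0.17), and KRT14, EPCAM and KRT17 were called lower (-1.09, -0.99 and -0.58). PTPRC, the gene of the leukocyte antigen CD45, ranged from 0 to 0.105 CPM. Of the 5 leukocyte markers analysed, 4 were under 1 CPM in every library, and all 5 summed to 52.1 and 52.6 CPM in the siNAT10-labelled libraries and 46.5 and 48.4 CPM in the siControl libraries. The 5 fibroblast markers summed to 22.7 and 21.3 CPM in the siNAT10-labelled libraries and 27.9 and 30.1 CPM in siControl, and the 3 endothelial markers to 3.35 and 3.76 CPM in the siNAT10-labelled libraries and 2.52 and 3.02 CPM in siControl. Within the endothelial markers, VWF was called higher, at 1.13 and 0.881 CPM in the siNAT10-labelled libraries and 0.184 and 0.0539 CPM in siControl, and PECAM1 was called lower, at 0.289 and 0.136 CPM in the siNAT10-labelled libraries and 0.919 and 1.24 CPM in siControl. Of the fibroblast markers, COL1A1 was called lower (-0.42). Their part in the results was not tested.

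The 20S core of the proteasome is a barrel of alpha rings around beta rings, and PSMB5, PSMB6 and PSMB7 encode its active sites. The 19S cap recognises ubiquitin chains, unfolds the substrate with a ring of ATPases and feeds it into the core. Interferon induces the replacement subunits PSMB8, PSMB9 and PSMB10 and the activator subunits PSME1 and PSME2, which change the peptides made for presentation on HLA class I. Epithelial cells are known to carry mainly the constitutive form, while leukocytes carry much of the inducible form.

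The start regions of the 5 inducible genes are shown because 4 of them hold the same element, while calls among the 5 went in both directions. RefSeq windows (GRCh38.p14) run 300 bases, from 250 before to 50 after an annotated start. Capitals mark any of 3 motifs searched on both strands: the core of the interferon-stimulated response element (ISRE), TTTCNNTTTC; the gamma-activated site (GAS) core, TTCNNNGAA; and the core of the antioxidant response element (ARE), TGACNNNGC, which NFE2L1 and NFE2L2 are known to bind.
PSMB8, chr6:32843998-32844297, minus strand, the downstream of its 2 annotated starts: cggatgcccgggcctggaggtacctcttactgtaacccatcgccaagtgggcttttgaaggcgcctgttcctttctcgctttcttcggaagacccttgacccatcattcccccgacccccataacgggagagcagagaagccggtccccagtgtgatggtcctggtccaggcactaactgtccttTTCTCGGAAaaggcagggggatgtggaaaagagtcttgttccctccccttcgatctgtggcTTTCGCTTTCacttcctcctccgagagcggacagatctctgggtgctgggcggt
PSMB9, chr6:32853942-32854241, plus strand: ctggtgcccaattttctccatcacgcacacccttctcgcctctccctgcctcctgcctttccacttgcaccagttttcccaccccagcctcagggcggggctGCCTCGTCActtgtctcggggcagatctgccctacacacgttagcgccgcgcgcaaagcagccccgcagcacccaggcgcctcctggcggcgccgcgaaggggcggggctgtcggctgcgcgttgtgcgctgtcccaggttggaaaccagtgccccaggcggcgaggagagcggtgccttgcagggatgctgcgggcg
PSMB10, chr16:67936801-67937100, minus strand: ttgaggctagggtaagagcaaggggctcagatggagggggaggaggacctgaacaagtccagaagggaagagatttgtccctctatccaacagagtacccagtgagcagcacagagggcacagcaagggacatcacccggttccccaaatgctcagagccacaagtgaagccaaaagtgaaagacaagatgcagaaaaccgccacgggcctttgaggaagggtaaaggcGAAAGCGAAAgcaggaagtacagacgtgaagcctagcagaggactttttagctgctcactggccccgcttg
PSME1, chr14:24135944-24136243, plus strand: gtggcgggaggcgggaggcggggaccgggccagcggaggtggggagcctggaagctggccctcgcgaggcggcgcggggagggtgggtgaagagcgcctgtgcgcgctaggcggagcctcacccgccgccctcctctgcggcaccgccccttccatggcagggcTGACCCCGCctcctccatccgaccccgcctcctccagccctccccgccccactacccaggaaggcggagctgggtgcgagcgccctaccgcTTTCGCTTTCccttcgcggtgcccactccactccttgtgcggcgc
PSME2, chr14:24146561-24146860, minus strand: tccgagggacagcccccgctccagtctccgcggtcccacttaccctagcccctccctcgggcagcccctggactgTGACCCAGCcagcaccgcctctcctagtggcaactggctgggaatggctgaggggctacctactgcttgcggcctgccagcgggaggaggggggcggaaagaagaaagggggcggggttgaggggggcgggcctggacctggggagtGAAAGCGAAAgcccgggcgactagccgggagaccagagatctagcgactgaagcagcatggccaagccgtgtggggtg

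In these windows the ISRE core was read as TTTCGCTTTC, or its reverse complement GAAAGCGAAA, in PSMB8, PSMB10, PSME1 and PSME2. The first base of the element lay at -4 in PSMB8, -21 in PSMB10, 6 in PSME1 and -28 in PSME2, counted from the start site as 1 with no 0. The 42 proteasome genes with a window had 52 windows, so shares are given over genes, each counted once if any of its windows held the motif. The ISRE core was in 4.38% of all 27305 genes with a RefSeq window (3.57% of 35116 windows), in 4 of the 5 inducible genes, in 2 of the 10 constitutive 20S genes with a window (PSMA4 and PSMB4) and in 0 of 20 genes of the 19S cap. The exact letters TTTCGCTTTC, picked after the windows were read, were in 0.125% of genes (0.0997% of windows) and, among the 42 proteasome genes with a window, in the 4 inducible genes and PSMG4. PSMB9 held an ARE core and neither interferon motif in its window, and PSMB8 also held a GAS core. The exons counted for PSMB9 begin at 32844136, upstream of that window, so a start there was not searched. The GAS core was in 9.38% of all genes with a window and in 7 of the 42 proteasome genes. The ARE core was in 16.1% of all genes with a window (13.3% of windows) and in 16 of the 42 proteasome genes. A match is a description of letters, not a site in use.

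Most constitutive proteasome genes were higher in the libraries labelled siNAT10, and 3 of the 5 inducible genes were lower. Of the 48 genes, 26 rose and 3 fell at an edgeR adjusted p under 0.05, and 19 were not called. Over all 20098 tested genes, 19.7% were called higher and 20.7% lower, 40.4% in all. These shares include many genes with few counts. With a filter of 50 counts, 7556 of 15430 genes were called, 3731 higher and 3825 lower, and the 48 genes again gave 26 higher and 3 lower. Both libraries labelled siNAT10 lay above both siControl libraries in 34 of the 48 genes and below them in 5, against 34.1% and 35.4% of all tested genes. At least 1.5-fold rises were called in 10 of the 48 genes and in 7.2% of all tested genes. All 3 genes that fell, PSMB9, PSMB8 and PSME1, were inducible. The median log2 fold change was -0.34 over the 5 inducible genes, 0.59 over the 14 constitutive 20S genes, 0.28 over the 21 genes of the 19S cap and -0.03 over the 8 assembly, activator and inhibitor genes, against -0.01 over all tested genes. In bulk RNA, more cells of a kind and more RNA per cell cannot be told apart. With libraries scaled by their totals alone, the median of all tested genes stood at -0.12, and 22 of the 48 genes were called higher and 4 lower.

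**Figure D1:**
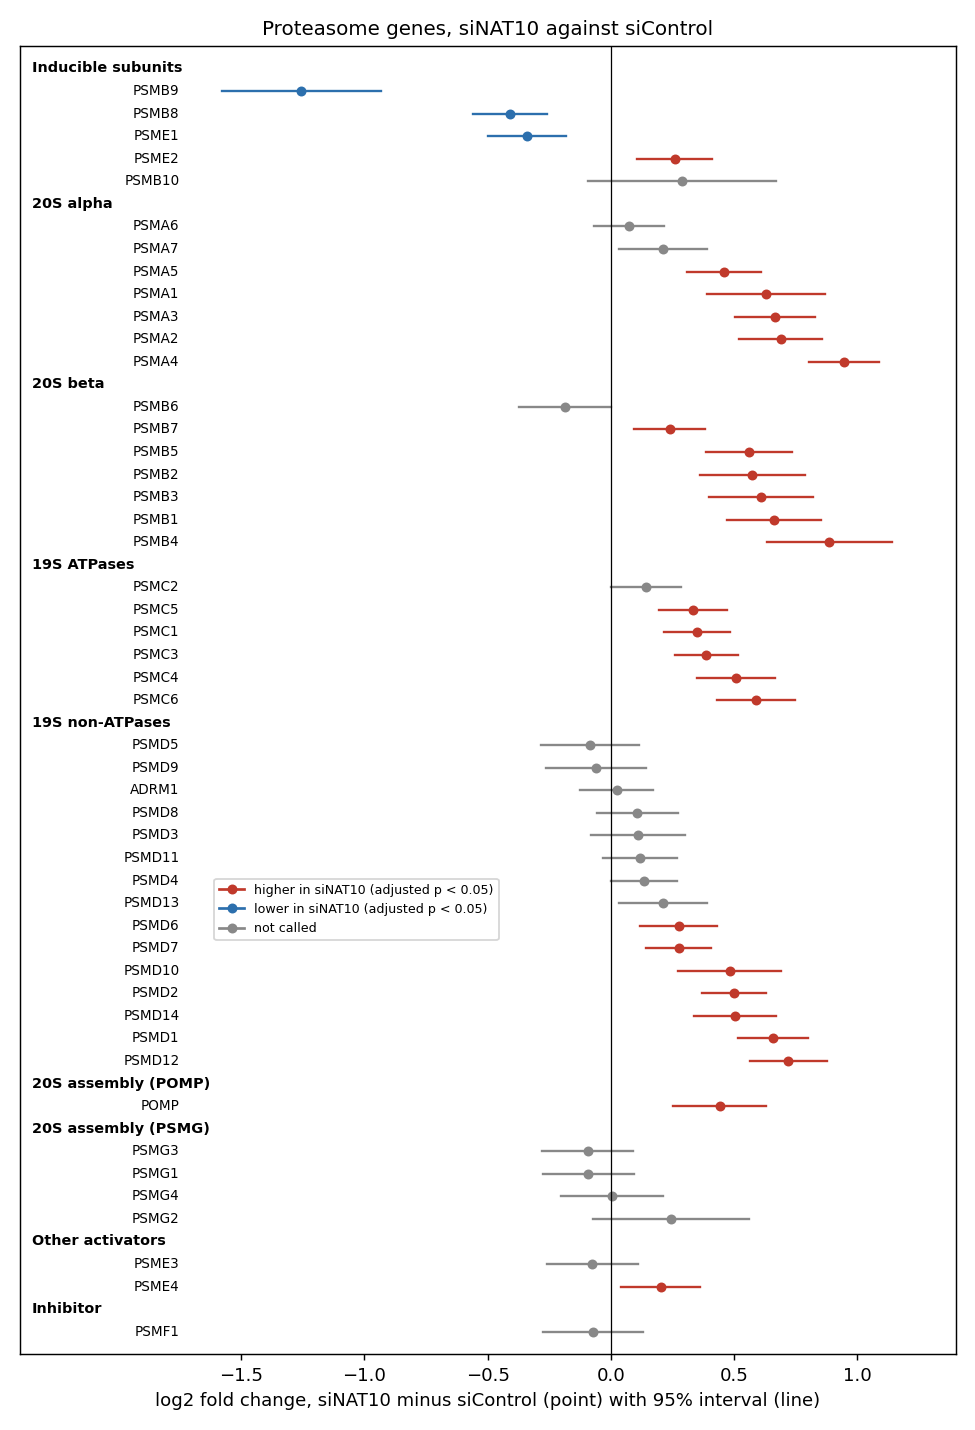
Log2 fold change of each of the 48 genes, siNAT10 minus siControl (points), with unadjusted 95% intervals (lines), grouped by role and coloured by the edgeR call. PSMB9, PSMB8 and PSME1 lie left of 0 with their whole interval, while 26 genes are called to the right.

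**Figure D2:**
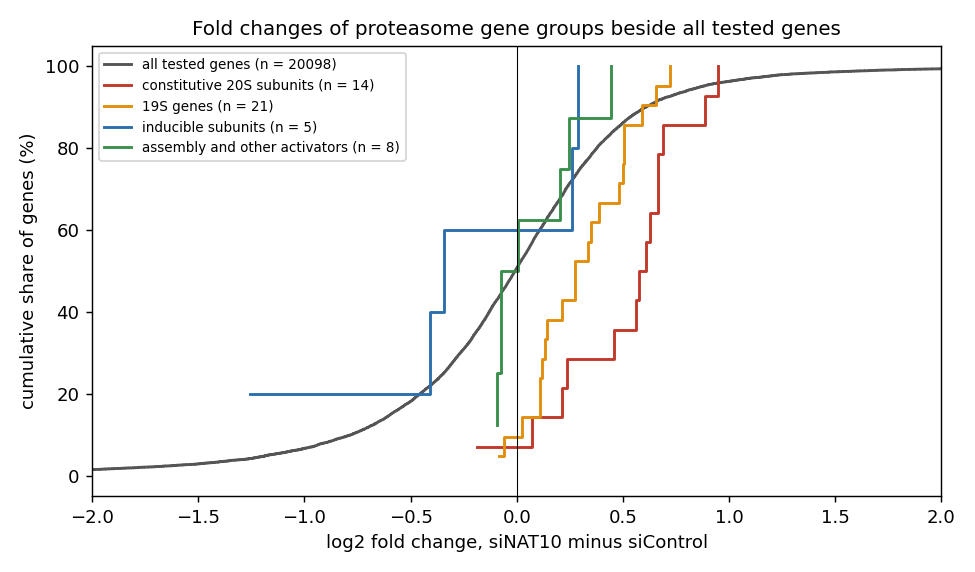
Cumulative share of genes (%) by log2 fold change for the 14 constitutive 20S genes, the 21 genes of the 19S cap, the 5 inducible genes and the 8 assembly, activator and inhibitor genes, beside the 20098 tested genes. The 20S curve crosses 50% near its median of 0.59, and the curve of all genes crosses it at -0.01.

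PSMB9, which replaces the active subunit PSMB6, changed most among the inducible genes. PSMB9 (chromosome 6, 32844136 to 32859585, plus strand, GRCh38) was at 3.61 and 4.71 CPM in the libraries labelled siNAT10 and at 9.59 and 10.2 CPM in the siControl libraries. Both libraries labelled siNAT10 lay below both siControl libraries, and the gene was 2.39-fold lower, with a difference of -1.26 ± 0.15 on the log2 scale (edgeR adjusted p = 2.33e-06). It was the 1 proteasome gene to fall at least 2-fold, which 5.62% of all tested genes did. Its level was low, 125 and 139 counts in the libraries labelled siNAT10. PSMB8-AS1 overlaps 5.66% of PSMB9 exon length on the same strand, so reads there may be counted for both. PSMB8-AS1 held 266 and 232 counts in the libraries labelled siNAT10 and 468 and 428 counts in siControl, more than PSMB9 in every library.

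PSMB8, which replaces PSMB5 and carries a chymotrypsin-like site, was the most abundant inducible beta gene. PSMB8 (chromosome 6, 32840717 to 32844703, minus strand) had 59.0 and 58.2 CPM in the libraries labelled siNAT10, against 74.7 and 81.1 CPM in the siControl libraries. The groups did not overlap, and the log2 difference stood at -0.41 ± 0.07 (edgeR adjusted p = 1.35e-04), or 1.33-fold lower. PSMB8-AS1, which is antisense to PSMB8 and overlaps exons of both PSMB8 and PSMB9, was at 7.69 and 7.86 CPM in the libraries labelled siNAT10 and 12.3 and 11.5 CPM in siControl, a log2 fold change of -0.62. The strand setting of the counts is not given in the sources used here, so its reads and those of PSMB8 cannot be told apart where they overlap, over 21.2% of PSMB8 exon length.

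PSMB10, which replaces PSMB7, was not called. PSMB10 (chromosome 16, 67934502 to 67937087) was at 3.96 and 4.27 CPM in the libraries labelled siNAT10 and at 3.47 and 3.26 CPM in the siControl libraries. The groups did not overlap, as for 69.5% of all tested genes, but the log2 fold change of 0.29 ± 0.18 was not called (edgeR adjusted p = 0.225), with a 95% interval from -0.094 to 0.671. CTC-479C5.12 overlaps 34.8% of its exon length on the same strand. That gene held 136 and 119 counts in the libraries labelled siNAT10 and 124 and 110 counts in siControl, nearly as many as PSMB10 with 137 and 126 counts in the libraries labelled siNAT10 and 132 and 121 counts in siControl, so reads may be counted for both. Of the 48 genes, 24 share exon bases with another gene of the table.

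PSME1 and PSME2 encode the alpha and beta subunits of one ring, the interferon-induced PA28 activator, and moved in opposite directions. PSME1 (chromosome 14, 24136158 to 24138967, plus strand) had 199 and 212 CPM in the libraries labelled siNAT10 and 238 and 281 CPM in the siControl libraries. It fell, with a log2 difference of -0.34 ± 0.08 (edgeR adjusted p = 1.27e-03), and its groups did not overlap. PSME2 (chromosome 14, 24143362 to 24147570, minus strand) had 74.8 and 83.0 CPM in the libraries labelled siNAT10, against 67.2 and 64.5 CPM in the siControl libraries. It rose, with a log2 difference of 0.26 ± 0.07 (edgeR adjusted p = 7.61e-03), again without overlap. That call was lost without siNAT10 replicate 2 (adjusted p = 0.159) and with libraries scaled by their totals alone (adjusted p = 0.115). PSME1 shares 9 bases of exon with EMC9, which was lower (log2 fold change -0.36), and PSME2 shares 216 bases with the ubiquitin ligase gene RNF31, which was higher (0.35).

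**Figure D3:**
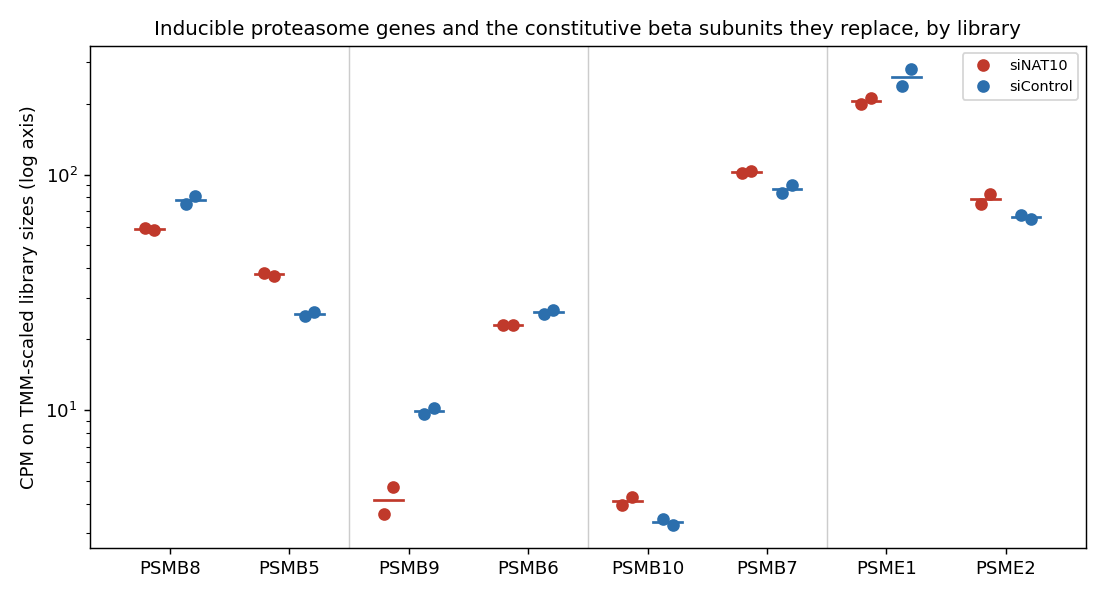
CPM on a log axis in each library for the inducible genes and the beta subunits they replace, with siNAT10 left of siControl for each gene. Points are libraries and lines are means of 2. PSMB9 lies at 3.61 and 4.71 CPM in siNAT10 and at 9.59 and 10.2 CPM in siControl, and PSMB5 shows the opposite order.

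Of the constitutive partners of these subunits, PSMB5 and PSMB7 rose and PSMB6 was not called. PSMB5, the chymotrypsin-like subunit, had 38.4 and 37.2 CPM in the libraries labelled siNAT10 and 25.1 and 26.1 CPM in the siControl libraries, and rose by 0.56 ± 0.08 on the log2 scale (edgeR adjusted p = 2.34e-05). PSMB7, the trypsin-like subunit, had 102 and 103 CPM in the libraries labelled siNAT10 and 83.4 and 90.3 CPM in the siControl libraries, with a log2 difference of 0.24 ± 0.07 (edgeR adjusted p = 9.01e-03). Its call was lost without siNAT10 replicate 2 (adjusted p = 0.0741) and with totals alone (adjusted p = 0.141). PSMB6, the caspase-like subunit, was the 1 constitutive 20S gene below 0. It had 23.1 and 23.0 CPM in the libraries labelled siNAT10 and 25.6 and 26.7 CPM in the siControl libraries, a log2 fold change of -0.18 ± 0.09 that was not called (edgeR adjusted p = 0.108, 95% interval -0.371 to 0.0018) and was called lower with totals alone (adjusted p = 0.0114).

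Ratios within a library do not depend on how libraries are scaled. Counts per kilobase of exon gave a PSMB8 to PSMB5 ratio of 1.35 and 1.38 in the libraries labelled siNAT10 and 2.62 and 2.73 in the siControl libraries, which is 1.96-fold lower. For PSMB9 to PSMB6 the ratio was 0.0737 and 0.0966 in the libraries labelled siNAT10 and 0.176 and 0.18 in the siControl libraries, 2.11-fold lower. PSMB10 to PSMB7 stood at 0.0375 and 0.0399 in the libraries labelled siNAT10 and at 0.0401 and 0.0348 in siControl, with overlapping groups. An exact two-sided permutation test over the 4 libraries gave p = 0.333 for PSMB8 to PSMB5, 0.333 for PSMB9 to PSMB6 and 1 for PSMB10 to PSMB7. With 2 libraries against 2, 0.333 is the smallest p possible, so none of the 3 could pass the threshold. The PSME1 to PSME2 ratio, computed after the values of both genes were seen and given with no test, was 5.33 and 5.13 in the libraries labelled siNAT10 and 7.13 and 8.77 in the siControl libraries. Exon lengths cover all annotated isoforms (2006 bases for PSMB8, 1765 for PSMB5, 3072 for PSMB9 and 1448 for PSMB6), so the level of a ratio depends on them and its difference between groups does not.

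**Figure D4:**
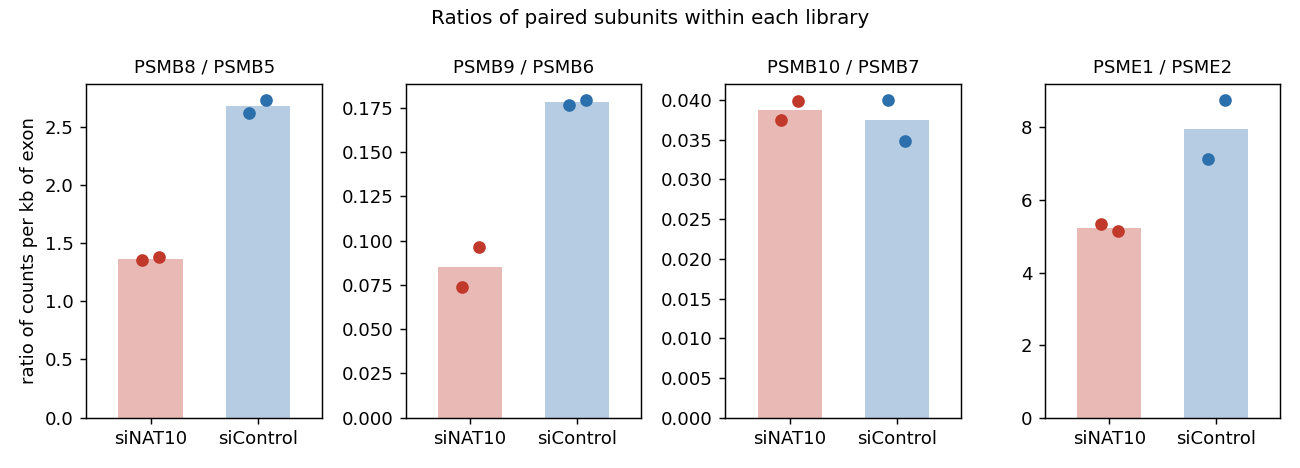
Ratio of counts per kilobase of exon within each library (points) with the mean of 2 (bars), siNAT10 left of siControl. The PSMB8 to PSMB5 ratio is 1.35 and 1.38 in siNAT10 against 2.62 and 2.73 in siControl, and the PSMB10 to PSMB7 groups overlap.

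In the alpha rings, which form the gate of the core, 5 of 7 genes rose and none fell. PSMA4 (chromosome 15, 78540405 to 78552419) had the largest rise of the 48 genes. It had 255 and 260 CPM in the libraries labelled siNAT10, against 140 and 128 CPM in the siControl libraries, or 0.95 ± 0.07 higher on the log2 scale (edgeR adjusted p = 1.78e-09). PSMA2 followed with 42.9 and 42.7 CPM in the libraries labelled siNAT10 and 26.8 and 26.2 CPM in siControl (log2 fold change 0.69 ± 0.08, edgeR adjusted p = 1.34e-06). PSMA3, PSMA1 and PSMA5 rose by log2 fold changes of 0.67, 0.63 and 0.46. On the same strand, RP11-111K18.1 overlaps 14.6% of PSMA2 exon length and RP11-140L24.4 overlaps 24.7% of PSMA1 exon length. Each held more counts than the gene it overlaps in every library, so reads may be counted for both. PSMA6 (0.07, edgeR adjusted p = 0.412) and PSMA7 (0.21, edgeR adjusted p = 0.0546) were not called, although both genes were higher in both libraries labelled siNAT10 than in either siControl library. RP11-561B11.2 overlaps 14.1% of PSMA6 exon length on the same strand. Its counts were close to those of PSMA6 in every library, so reads may be counted for both here too. PSMA7 was called higher without siControl replicate 2 (adjusted p = 1.79e-07), with no low-count filter (0.0129), with the replicate block (0.013) and with RLE (relative log expression) scaling (0.0472).

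Among the constitutive beta subunits, 6 of 7 genes rose and none fell. PSMB4, a subunit without an active site, had 17.5 and 17.01 CPM in the libraries labelled siNAT10 and 10.5 and 8.19 CPM in the siControl libraries (log2 fold change 0.89 ± 0.12, edgeR adjusted p = 9.06e-06). PSMB1 had 40.1 and 46.8 CPM in the libraries labelled siNAT10 and 28.6 and 26.2 CPM in siControl (0.66 ± 0.09, edgeR adjusted p = 8.56e-06). PSMB3 and PSMB2 rose by 0.61 and 0.58. Each subunit is present in the core in the same number of copies, and the measured mRNA levels differed widely. These levels depend on exon lengths that cover all annotated isoforms and on how reads in exons shared with other genes were counted. As CPM per kilobase of exon, the siControl means ran from 2.89 for PSMA1, 3.05 for PSMB2, 4.32 for PSMB4 and 4.97 for PSMA2 up to 48.6 for PSMB7 and 106 for PSMA7. The 8 others lay between 12.01 and 19.1. On the same scale PSMB8 averaged 29.2 in the libraries labelled siNAT10 and 38.8 in siControl, PSMB9 averaged 1.35 in siNAT10 and 3.22 in siControl, and PSMB10 averaged 2.22 in siNAT10 and 1.81 in siControl.

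In the cap, 5 of the 6 ATPase genes rose. PSMC6 had 52.2 and 53.0 CPM in the libraries labelled siNAT10 and 34.8 and 35.02 CPM in the siControl libraries (log2 fold change 0.59 ± 0.08, edgeR adjusted p = 4.08e-06). PSMC4 had 52.3 and 53.1 CPM in the libraries labelled siNAT10 and 37.0 and 37.1 CPM in siControl (0.51 ± 0.08, edgeR adjusted p = 2.21e-05). PSMC3, the most abundant of the 48 genes at a mean of 781 CPM in siNAT10 and 597 CPM in siControl, rose by 0.39, and PSMC1 and PSMC5 rose by 0.35 and 0.33. PSMC2 (0.14, edgeR adjusted p = 0.0987) was not called. NRDE2, on the opposite strand, overlaps 75.8% of PSMC1 exon length and was itself higher (0.64), at 62.4 and 63.8 CPM in the libraries labelled siNAT10 and 40.5 and 40.5 CPM in siControl, so the PSMC1 value is uncertain. FTSJ3, on the strand opposite PSMC5, overlaps 19.5% of PSMC5 exon length and held more counts than PSMC5 in every library. FTSJ3 had 23411 and 18857 counts in the libraries labelled siNAT10 and 16593 and 16771 counts in siControl, so the PSMC5 value is uncertain as well.

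Of the 15 other genes counted with the cap, 7 rose and none fell. Both these 15 and the 21 genes of the cap include the assembly chaperones PSMD5, PSMD9 and PSMD10. PSMD12, a lid subunit, had 60.1 and 60.4 CPM in the libraries labelled siNAT10 and 37.3 and 35.8 CPM in the siControl libraries (log2 fold change 0.72 ± 0.07, edgeR adjusted p = 2.72e-07). PSMD1, a large scaffold of the base, had 126 and 123 CPM in the libraries labelled siNAT10 and 81.0 and 76.8 CPM in siControl (0.66 ± 0.07, edgeR adjusted p = 2.51e-07). PSMD14, the protease that cuts ubiquitin chains off the substrate, rose by 0.51, and PSMD2, the other large base scaffold, by 0.50. PSMD10, an assembly chaperone of the base also called gankyrin, rose by 0.48, and the lid subunits PSMD6 and PSMD7 by 0.28 each. AC009120.6, on the strand opposite PSMD7, overlaps 30.7% of PSMD7 exon length. It held 6636 and 5984 counts in the libraries labelled siNAT10 and 5852 and 5689 counts in siControl, so the PSMD7 value is uncertain. The PSMD6 call was lost without siNAT10 replicate 2 (adjusted p = 0.0559) and with totals alone (adjusted p = 0.0882).

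ADRM1 and PSMD4, which encode ubiquitin receptors of the cap, were not called. ADRM1 was at 77.8 and 77.6 CPM in the libraries labelled siNAT10 and at 73.2 and 79.6 CPM in siControl, with overlapping groups and a log2 difference of 0.02 ± 0.07 (edgeR adjusted p = 0.818). LAMA5, on the opposite strand, overlaps 11.4% of ADRM1 exon length and was lower (-0.39). The receptor gene PSMD4 stood at 0.14 (edgeR adjusted p = 0.1). The base chaperones PSMD5 (-0.08) and PSMD9 (-0.06) were not called either, unlike PSMD10. RP11-87C12.2 overlaps 14.9% of PSMD9 exon length on the same strand. Its counts were close to those of PSMD9 in every library, so reads may be counted for both. The remaining PSMD11, PSMD13, PSMD3 and PSMD8 had log2 fold changes from 0.11 to 0.21 without a call. Without siControl replicate 2, PSMD3, PSMD4, PSMD8, PSMD13 and PSMC2 were called higher as well, and PSMD13 also with RLE scaling (adjusted p = 0.0491) and with the replicate block (0.0494).

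POMP, the maturation factor that helps the core close and mature, rose while the other core chaperones were not called. POMP (chromosome 13, 28659104 to 28678925) had 45.1 and 42.1 CPM in the libraries labelled siNAT10 and 35.01 and 29.2 CPM in the siControl libraries, or 0.44 ± 0.09 higher on the log2 scale (edgeR adjusted p = 6.16e-04). PSMG1, PSMG2, PSMG3 and PSMG4, which pair up to build the alpha ring, had log2 fold changes of -0.09, 0.25, -0.09 and 0.01, with edgeR adjusted p from 0.211 to 0.972. None of the 4 was called, and their 95% intervals reached from -0.277 to 0.561. The difference between POMP and the PSMG genes was not tested.

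Of the activators outside the interferon response and the inhibitor, only PSME4 was called. PSME4, the large PA200 activator, had 47.4 and 47.7 CPM in the libraries labelled siNAT10 and 42.5 and 40.1 CPM in siControl (log2 fold change 0.20 ± 0.08, edgeR adjusted p = 0.0409), a call lost in 7 of 11 alternatives. PSME3, the nuclear relative of PSME1 and PSME2, had 115 and 105 CPM in the libraries labelled siNAT10 and 103 and 128 CPM in siControl (-0.07 ± 0.09, edgeR adjusted p = 0.54). It was called lower without siControl replicate 1 (-0.23, adjusted p = 6.06e-03). PSMF1, an inhibitor of the core, had 18.8 and 19.9 CPM in the libraries labelled siNAT10 and 19.4 and 21.3 CPM in siControl (-0.07 ± 0.10, edgeR adjusted p = 0.591).

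As a share of each library, the 43 genes outside the inducible set held 0.457% and 0.456% of all counts in the libraries labelled siNAT10 and 0.385% and 0.395% in the siControl libraries. The 5 inducible genes held 0.0328% and 0.0347% in the libraries labelled siNAT10 and 0.0412% and 0.0453% in siControl. Neither pair of groups overlapped. PSMC3, PSMD2 and PSMD7 weigh most in the first sum and PSME1 in the second. Named pseudogene rows took few reads: 24 such rows of 11 genes were present, and the largest, PSMC1P1, held at most 4.02% of the PSMC1 count in any library. These counts do not show how reads that match both a gene and its pseudogene were handled.

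Regulators of the inducible subunits were listed with their neighbours on chromosome 6, 11 genes in all, of which 5 fell and none rose. IRF1, an interferon-induced activator of the inducible subunit genes, had 18.1 and 17.6 CPM in the libraries labelled siNAT10 and 37.1 and 36.9 CPM in the siControl libraries (log2 fold change -1.05 ± 0.09, edgeR adjusted p = 1.53e-08). TAP1, a peptide transporter gene that shares a promoter region with PSMB9, had 32.2 and 31.5 CPM in the libraries labelled siNAT10 and 61.2 and 65.7 CPM in siControl (-0.99 ± 0.08, edgeR adjusted p = 5.85e-09). IRF9, a subunit of the interferon-activated ISGF3 complex, fell by 0.66 on the log2 scale, and NLRC5, a transactivator of HLA class I genes, by 0.47. IFNGR1, a chain of the interferon gamma receptor, also fell, by 0.55. STAT2, IRF2, JAK1, JAK2, IFNGR2 and TAP2 were not called. The list had a median of -0.15, against -0.01 over all tested genes, with 45.5% called lower against 20.7%.

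Of 28 genes of ubiquitin supply, substrate delivery and proteasome control, 12 rose and 2 fell, with a median log2 fold change of 0.14, against -0.01 over all tested genes. That is 42.9% higher and 7.14% lower, against 19.7% and 20.7% of all tested genes. VCP, the ATPase that extracts ubiquitinated proteins, had 167 and 166 CPM in the libraries labelled siNAT10 and 108 and 103 CPM in siControl (0.66 ± 0.07, edgeR adjusted p = 1.77e-07). Its cofactor gene UFD1L (now UFD1) rose by 0.57, the proteasome-bound ligase gene UBE3C by 0.61, and RPS27A, which encodes ubiquitin fused to a ribosomal protein, by 0.46. NFE2L1, the factor that raises proteasome genes when the proteasome is impaired, fell. NFE2L1 had 352 and 347 CPM in the libraries labelled siNAT10 and 458 and 503 CPM in the siControl libraries (-0.46 ± 0.07, edgeR adjusted p = 1.53e-05). NFE2L2, its relative in the oxidative stress response, was the other gene of the list that fell (-0.23).

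**Figure D5:**
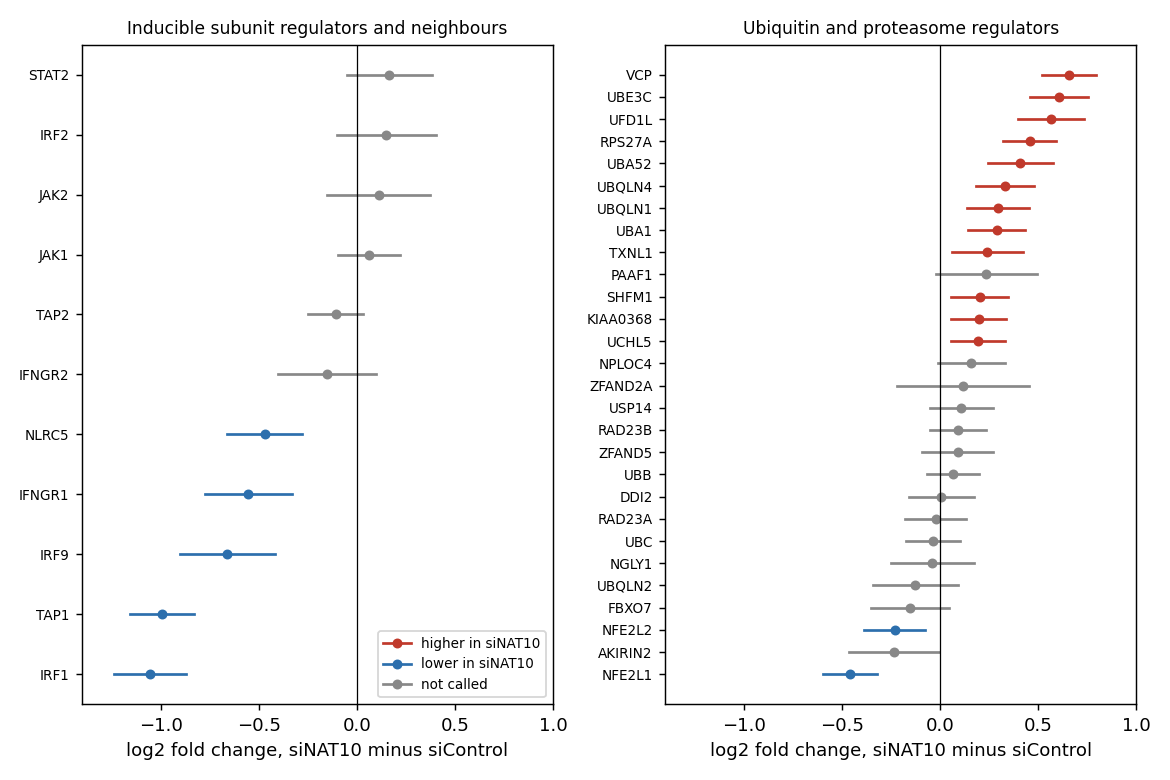
Log2 fold change, siNAT10 minus siControl, with unadjusted 95% intervals for 11 regulators and neighbours of the inducible genes (left) and 28 ubiquitin and proteasome genes (right). IRF1 and TAP1 stand at -1.05 and -0.99 on the left, and VCP at 0.66 and NFE2L1 at -0.46 on the right.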

How the data were processed

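Gene counts were deposited by the authors as 1 table of raw counts for 4 libraries. The submitters' processing notes name GRCh38, featureCounts, STAR 2.5.3a and fastp 0.23.4 for the steps before deposit, and the strand setting was not found in them. Even numbers made up 72.0% to 73.5% of each library's counts between 1 and 50, as when both mates of a pair are counted. A floor of 3 counts was 0.0825 to 0.0974 CPM. Exon length came from the deposited table. Groups came from the sample titles.

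Counts were tested with edgeR 4.0.16 in R 4.3.3 (filterByExpr by group, TMM, robust glmQLFit and glmQLFTest, group only, two-sided, Benjamini-Hochberg over 20098 genes, threshold 0.05, 2 residual degrees of freedom), and the script was tested on simulated data. The spread of each gene was moderated with that of the other genes, so its test used more than the 2 residual degrees of freedom. SE is the log2 fold change over the root of F. Libraries of 1 group differed beyond sampling noise (chi-square per degree of freedom 4.77 in siNAT10 and 7.94 in siControl). The 12 alternatives included DESeq2 1.42.0. Promoter windows came from RefSeq and 42 of 48 genes had one. KRT6A, CD3E and LYZ were not analysed here. The genes and lists were chosen with earlier results of these data known. Values in every library were given for NAT10, the inducible genes, PSMB5, PSMB6, PSMB7, POMP, ADRM1, PSME3, PSME4, PSMF1 and, per role, the 2 called genes that rose most and the 2 that fell most. Of the other pathway genes, the 8 with the smallest adjusted p and NLRC5 were named, others named were chosen after their values were seen, and 1 gene of the list of regulators of the inducible subunits and 1 leukocyte marker are not reported here.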

Additional observations from a re-analysis of the deposited data

How the results depend on the processing

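Of the 29 called proteasome genes, 25 kept their call in every alternative run; the exceptions were PSMB7, PSMD6, PSME2 and PSME4. Of the 19 without a call, 8 were called in at least 1 alternative (PSMA7, PSMB6, PSMC2, PSMD13, PSMD3, PSMD4, PSMD8 and PSME3), 5 others changed sign and 6 did neither. Among rows without overlapping exons, 3934 of 9865 genes, 16 of 24 proteasome genes (all higher), 6 of 11 genes of the 19S cap, 1 of 2 assembly and activator genes and 8 of 17 other pathway genes were called, and no inducible gene could be tested. The count of assembly and activator genes called was 1 with totals only, with no low-count filter, with DESeq2 and with the replicate block. DESeq2 called 5611 genes and 28 proteasome genes. Totals only called 2688 genes higher and 5604 lower, so 32.4% of calls were higher, against 48.7% with TMM.

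Leaving out 1 library at a time gave 6128 to 7795 genes, 25 to 34 proteasome genes, 3 to 4 inducible genes, 10 to 12 constitutive 20S genes, 11 to 17 genes of the cap, 1 to 3 assembly and activator genes and 12 to 19 other pathway genes (12 without siNAT10 replicate 2). The log2 difference ranged from -1.001 to -0.94 for PSMB8 to PSMB5, from -1.27 to -0.88 for PSMB9 to PSMB6 and from -0.051 to 0.15 for PSMB10 to PSMB7, which changed sign without siControl replicate 2. The lone library is assumed to vary like the other group.

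The labels do not say whether a replicate number marks a shared culture or day. Same-numbered libraries had a correlation of deviations of -0.02 over 20098 genes, which cannot show that nothing was shared. With a replicate block, 8254 genes and 30 proteasome genes were called; PSMA7 and PSMD13 gained a call and PSME4 lost it.

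Genes without a call that changed sign were, with totals only, ADRM1 (-0.087), PSMA6 (-0.037), PSMD3 (-0.00056), PSMD8 (-0.0018), PSMG4 (-0.11) and NAT10 (-0.024). PSMG4 was at -0.0010 with no filter. Leaving out 1 library at a time, ADRM1 ranged from -0.037 to 0.085, PSMD3 from -0.060 to 0.30, PSMD8 from -0.028 to 0.26, PSMD9 from -0.20 to 0.092, PSME3 from -0.23 to 0.095, PSMG1 from -0.18 to 0.0084 and PSMG4 from -0.036 to 0.047. The cause of these changes was not tested.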
